A study of Homo sapiens with 20 samples.

Results

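The enzymes that build cholesterol and fatty acids, with the proteins that set their transcription, were followed by name on 20 Affymetrix arrays of human mammary epithelial cells. The list holds 31 genes, 17 of sterol synthesis, 7 of fatty acid synthesis and 7 regulators and sterol transport proteins. They were found by symbol among the transcript clusters (the probes of 1 transcription unit) that the platform annotation gives 1 symbol, with the brightest cluster standing for each gene. This found 30 of the 31 among the 18417 genes measured, 16 of sterol synthesis and 7 in each of the other classes. HSD17B7, a sterol ketone reductase, had only a cluster shared with the pseudogene HSD17B7P2 and was left out.

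The cells were B5/589, an immortalized line of normal breast epithelium, and every group carried a p53 transgene that doxycycline switches on. There were 5 groups of 4 arrays. Doses of 3 ng and 5 ng doxycycline, stated in the labels with no volume, were each collected at 12 h and at 24 h, and the fifth group was left without doxycycline. That uninduced group (0 ng) was collected at 24 h only, and no group had doxycycline without the transgene, so effects of the drug and of p53 cannot be told apart. The medium held 10% fetal bovine serum, a source of lipoprotein cholesterol, and 5 ng/ml of epidermal growth factor, and was replaced every 24 h. The labels do not state whether replicate arrays stem from different cultures, and the p-values therefore reflect array-to-array spread that may be technical.

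As background, cells make cholesterol from acetyl-CoA through mevalonate, farnesyl diphosphate, squalene and lanosterol, and make palmitate from the same acetyl-CoA. Both routes are switched on by the sterol regulatory element-binding proteins (SREBPs), which are made as membrane precursors, carried out of the endoplasmic reticulum by SCAP when sterols are low, cut, and moved to the nucleus. INSIG proteins hold SCAP back when sterols are plentiful, while liver X receptors switch on export genes such as ABCA1. SREBP-2 acts mostly on sterol genes and SREBP-1 on fatty acid genes, usually together with the factors NF-Y and Sp1 bound beside it. In breast epithelium the fatty acid enzymes serve membrane growth and, in lactation, milk fat.

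Values are signals on the log2 scale as the authors deposited them, and a difference of 1 is a doubling. The arrays differed in brightness, with medians over all 33297 clusters from 4.54 to 5.54. The array medians spanned 4.54 to 4.99 at 5 ng and 4.74 to 5.01 at 3 ng after 24 h, against 4.94 to 5.28 at 0 ng. The median of all genes was accordingly 0.24 below 0 at 5 ng against 0 ng, and 0.07 above 0 once the arrays were quantile-normalized to a common distribution. The same median was -0.24 as deposited and 0.08 after normalization at 3 ng. Each test was therefore run on both scales with limma, adjusted over all 18417 genes with the Benjamini-Hochberg method, and a gene is said to have risen or fallen when its adjusted p was under 0.05 on both. A gene that passed on 1 scale only is described by its values. Statements on the overlap of arrays refer to the deposited values unless said otherwise. The share of all genes separated in this way is not given. In such bulk RNA, fewer cells of a type and less RNA per cell cannot be told apart.

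**Figure D1:**
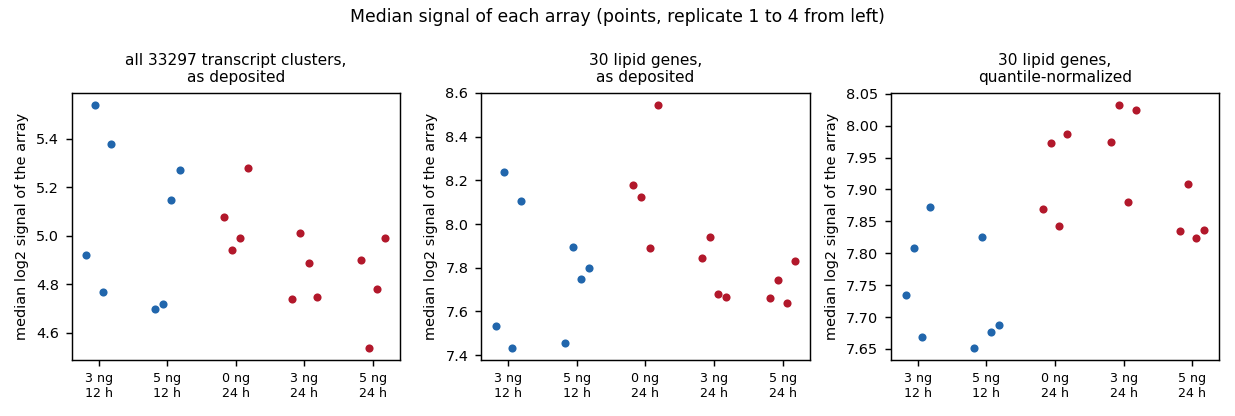
Median log2 signal of each of the 20 arrays (points, replicate 1 to 4 from left in each group) over all transcript clusters as deposited (left), over the 30 lipid genes as deposited (middle) and over the 30 lipid genes after quantile normalization (right). The deposited medians of the lipid genes lie between 7.64 and 7.83 at 5 ng and between 7.67 and 7.94 at 3 ng after 24 h, against 7.89 to 8.55 at 0 ng, and after quantile normalization the 3 groups at 24 h overlap.

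After 24 h with 5 ng, 2 of the 30 genes rose and 11 fell against 0 ng. The risers were TM7SF2, the sterol reductase that acts just after the C14 methyl group of lanosterol is removed, and ABCA1, the cholesterol exporter. The fallers were 6 of the 7 fatty acid enzymes, 4 sterol enzymes (EBP, FDPS, SQLE and CYP51A1) and INSIG1. Over all genes, 4.52% rose and 17.1% fell on both scales. On the deposited values alone the counts were 2 higher and 15 lower, against 4.52% and 23.5% of all genes, and after quantile normalization 6 higher and 11 lower, against 20.6% and 17.2%. Centring each array on its median gave 3 higher and 8 lower, against 11.8% and 14.8%, and of the 13 genes above SQLE (-0.32, adjusted p = 0.079), CYP51A1 (-0.28, adjusted p = 0.16) and ACLY (-0.36, adjusted p = 0.076) did not pass there. The median difference of the 30 genes was -0.45 as deposited and -0.07 after normalization. The fatty acid enzymes had a median of -0.99 (-0.58 after normalization), the sterol enzymes -0.30 (0.07) and the regulators -0.29 (0.09).

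After 24 h with 3 ng, TM7SF2 and ABCA1 again rose, and EBP, FADS1, ELOVL6 and FADS2 fell. Over all genes 1.5% rose and 12.4% fell on both scales. The deposited values alone gave 2 higher and 14 lower, against 1.5% and 23% of all genes. Quantile normalization gave 6 higher and 4 lower, against 15.4% and 12.5%, and centring gave 2 and 5, against 4.42% and 12.8%. The deposited count of 16 depended on single arrays, and was 9 without 0 ng replicate 4 and 10 without replicate 3 or replicate 4 of 3 ng at 24 h. The count on both scales was 5 to 7 with any of the 20 arrays left out. Both doses were set against the same 4 arrays at 0 ng.

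**Figure D2:**
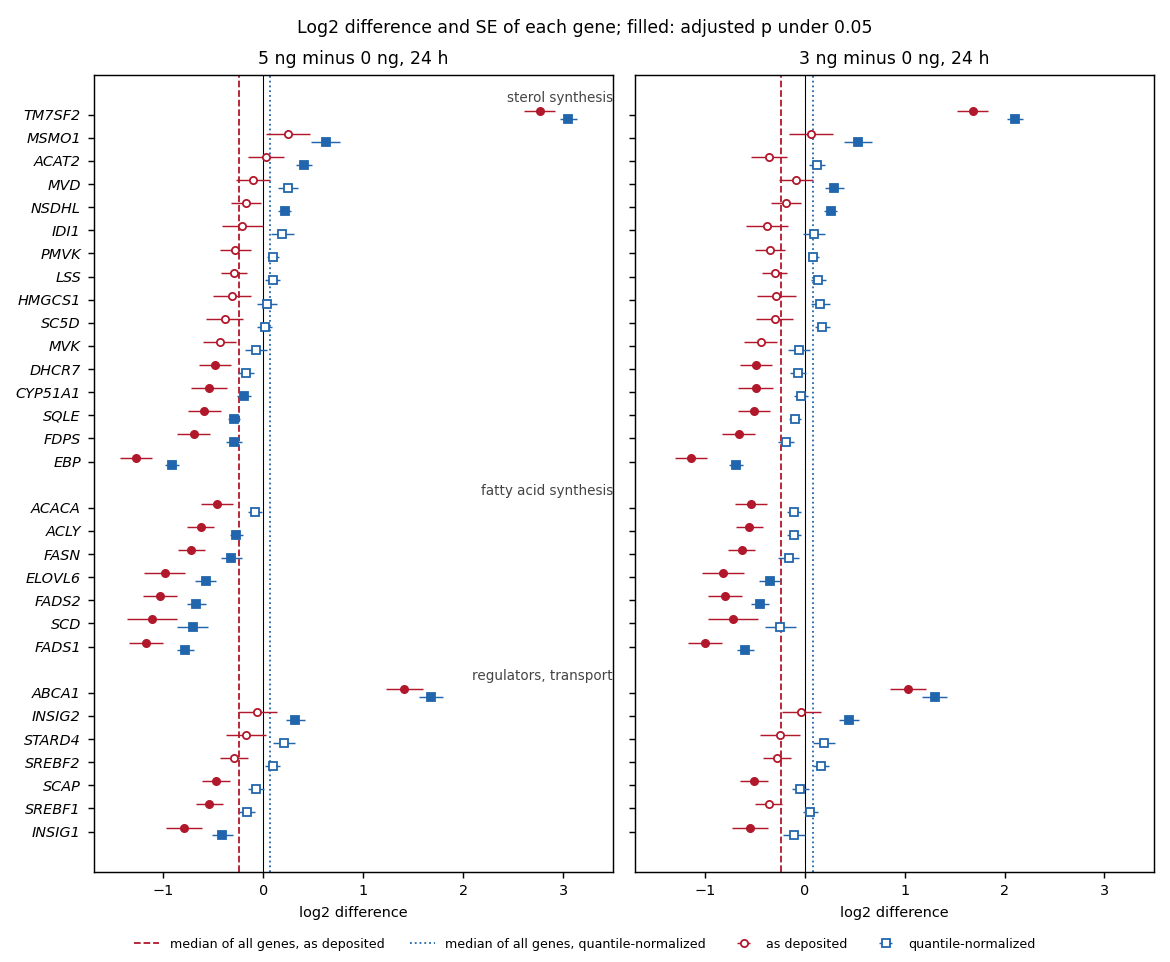
Log2 difference (x axis) and standard error of each of the 30 genes for 5 ng minus 0 ng (left) and 3 ng minus 0 ng (right) after 24 h, as deposited (circles) and after quantile normalization (squares), filled where the adjusted p is under 0.05. Vertical lines give the median of all 18417 genes on each scale. TM7SF2 and ABCA1 stand to the right of every other lipid gene at both doses, and EBP is the lowest at both.

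TM7SF2 reduces the C14 double bond that demethylation of lanosterol leaves behind. Its log2 signals after 24 h were 7.3, 7.18, 7.11 and 7.54 at 0 ng, 9.02, 9.0, 9.02 and 8.81 at 3 ng and 9.96, 10.05, 10.14 and 10.04 at 5 ng. After 12 h they were 9.01, 9.04, 9.08 and 9.16 at 5 ng, against 8.0, 8.42, 7.93 and 8.69 at 3 ng. All 3 doses were fully separated at 24 h, each step up in dose giving higher arrays, and both doses were separated at 12 h. The difference was 2.77 ± 0.15 at 5 ng (± standard error, as throughout; n = 4 per group), or 6.8-fold, with an adjusted p of 1.9e-11, and 3.05 after quantile normalization. At 3 ng it was 1.68 ± 0.15 (adjusted p = 7.7e-08), 2.11 after normalization. Ranked by deposited difference at 5 ng, TM7SF2 was number 29 from the top among the 18417 genes.

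EBP moves a sterol double bond from the C8 to the C7 position a few steps after TM7SF2 acts. Its signals were 9.63, 9.51, 9.45 and 9.87 at 0 ng, 8.5, 8.55, 8.6 and 8.25 at 3 ng and 8.14, 8.39, 8.43 and 8.39 at 5 ng after 24 h. After 12 h they were 8.93, 9.31, 9.23 and 9.05 at 5 ng, against 8.98, 9.69, 8.94 and 9.32 at 3 ng. Every array with doxycycline lay below every array at 0 ng after 24 h, and the 24 h arrays lay below the 12 h arrays at each dose. The difference was -1.28 ± 0.16 at 5 ng, 2.42-fold lower (adjusted p = 3.6e-06), and -1.14 ± 0.16 at 3 ng (adjusted p = 2.9e-05). After quantile normalization these were -0.91 and -0.69. TM7SF2 and EBP, which act on the same route, thus had differences of opposite sign at both doses.

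The upstream regions of these genes are shown because they are the lipid enzymes with the largest rise and the largest fall. Each run holds the 250 bases before the annotated start, 5′ to 3′ on the coding strand, from RefSeq on GRCh38.p14. Capitals mark the Sp1 box (GGGCGG) and the NF-Y box (CCAAT) on either strand.
TM7SF2, chr11:65111622-65111871, plus strand: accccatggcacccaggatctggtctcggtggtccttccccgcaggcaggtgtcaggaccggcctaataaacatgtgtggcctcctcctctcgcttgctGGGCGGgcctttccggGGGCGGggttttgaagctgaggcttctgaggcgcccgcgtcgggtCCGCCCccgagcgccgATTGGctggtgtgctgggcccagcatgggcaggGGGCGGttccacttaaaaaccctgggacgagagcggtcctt
EBP, chrX:48521558-48521807, plus strand: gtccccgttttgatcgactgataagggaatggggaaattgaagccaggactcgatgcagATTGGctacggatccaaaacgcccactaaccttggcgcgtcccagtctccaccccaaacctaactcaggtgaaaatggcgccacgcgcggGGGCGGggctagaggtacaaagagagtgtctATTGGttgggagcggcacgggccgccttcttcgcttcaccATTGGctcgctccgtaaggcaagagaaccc
Both regions held Sp1 and NF-Y boxes and neither held the sterol regulatory element or its core (TCACNCCAC), which says only that those letters are not in these windows.

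FDPS joins the isoprene units that lead to farnesyl diphosphate, the branch point between sterols and protein prenylation. It read 9.0, 8.82, 8.52 and 9.16 at 0 ng, 8.36, 8.31, 8.08 and 8.1 at 3 ng and 8.2, 8.13, 8.04 and 8.34 at 5 ng after 24 h. It read 8.16, 8.43, 8.17 and 8.25 at 5 ng, against 8.36, 8.82, 8.04 and 8.52 at 3 ng after 12 h. As deposited, both doses lay below 0 ng after 24 h with no overlap, while the 2 doses overlapped each other at both times. After normalization the 3 ng arrays at 24 h overlapped those at 0 ng. FDPS fell by 0.70 ± 0.16 at 5 ng (adjusted p = 0.0025; -0.30 after normalization). The value at 3 ng was -0.66 ± 0.16 (adjusted p = 0.0053), but -0.19 with an adjusted p of 0.088 after normalization. The platform also has clusters for FDPS that are shared with other genes, which were not used.

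SQLE oxidizes squalene, a rate-limiting step of the route. Its signals were 10.36, 10.29, 10.1 and 10.71 at 0 ng, 9.88, 10.0, 9.84 and 9.71 at 3 ng and 9.57, 9.82, 9.79 and 9.92 at 5 ng after 24 h. After 12 h they were 9.72, 9.93, 9.85 and 10.01 at 5 ng, against 9.65, 10.11, 9.43 and 10.06 at 3 ng. Both doses were below 0 ng after 24 h without overlap. The difference was -0.59 ± 0.16 at 5 ng (adjusted p = 0.0082; -0.30 after normalization, adjusted p = 0.00078). At 3 ng it was -0.51 ± 0.16 (adjusted p = 0.025) and -0.10 after normalization (adjusted p = 0.26), and the deposited value did not pass without 0 ng replicate 1 or 4 (-0.51 and -0.39) or 3 ng replicate 3 or 4 at 24 h (-0.50 and -0.46).

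CYP51A1 removes the C14 methyl group of lanosterol, the step just before TM7SF2. It read 9.37, 9.23, 9.02 and 9.73 at 0 ng, 8.91, 8.96, 8.69 and 8.82 at 3 ng and 8.71, 8.8, 8.64 and 9.02 at 5 ng after 24 h. It read 8.53, 8.77, 8.67 and 8.71 at 5 ng, against 8.52, 9.16, 8.31 and 8.95 at 3 ng after 12 h. The 5 ng and 0 ng arrays met at 9.02, while the 3 ng arrays all lay below 0 ng as deposited. After normalization the arrays at both doses overlapped those at 0 ng. CYP51A1 passed narrowly at 5 ng, with -0.55 ± 0.18 (adjusted p = 0.024) and -0.19 after normalization (adjusted p = 0.041). It no longer passed on both scales with any of 6 arrays left out, namely 0 ng replicate 1, 2 or 4 (-0.53, -0.58 and -0.41) and 5 ng replicate 1, 2 or 3 at 24 h (-0.52, -0.55 and -0.49). Averaging its 2 clusters also ended the call (-0.47, adjusted p = 0.074). At 3 ng the value was -0.49 ± 0.18, and -0.04 after normalization.

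The other 11 sterol enzymes had deposited differences at 5 ng from -0.48 in DHCR7, which makes cholesterol in the last step of its branch, to 0.25 in MSMO1, a C4 methyl oxidase. DHCR7 passed on the deposited values alone (adjusted p = 0.028) and had -0.17 after normalization, and its deposited call was lost without 0 ng replicate 1 or 4 (-0.49 and -0.34) or 5 ng replicate 1, 2 or 3 at 24 h (-0.44, -0.49 and -0.44). Of the early mevalonate enzymes, HMGCS1 had -0.32 (adjusted p = 0.26), MVK -0.44, PMVK -0.28, MVD -0.10 and IDI1 -0.21, and none of the 5 passed on either scale at 5 ng. Their normalized differences ran from -0.07 in MVK to 0.25 in MVD. LSS, which closes the sterol rings, had -0.29 and SC5D, a C5 desaturase, -0.39, with 0.09 and 0.01 after normalization. The remaining 3 passed after normalization only, all as higher at 5 ng. These were ACAT2, a cytosolic thiolase that starts the route, at 0.41, MSMO1 at 0.62, and NSDHL, a C4 decarboxylating dehydrogenase, at 0.21, where the deposited difference of NSDHL was -0.18. On the normalized values 4 of the 16 sterol enzymes were thus higher and 4 lower at 5 ng, where 20.6% of all genes were higher and 17.2% lower. As deposited 1 was higher and 5 lower, where 4.52% and 23.5% of all genes were.

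The enzymes of fatty acid synthesis went 1 way at 5 ng. All 7 were lower on both scales by their fitted difference, all 7 passed on the deposited values and 6 after normalization, the exception being ACACA. Over all genes 23.5% passed as lower on the deposited values and 17.2% after normalization. After centring 5 of the 7 passed, against 14.8% of all genes, and ACLY and ACACA did not. The route starts with ACLY, which splits citrate into acetyl-CoA, and ACACA, which carboxylates it to malonyl-CoA, and FASN then builds palmitate. SCD and FADS1 and FADS2 put double bonds into fatty acids, and ELOVL6 lengthens palmitate.

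ACLY read 9.86, 9.7, 9.69 and 10.14 at 0 ng, 9.42, 9.34, 9.13 and 9.28 at 3 ng and 9.07, 9.28, 9.18 and 9.35 at 5 ng after 24 h. At the earlier time it read 9.13, 9.3, 9.18 and 9.28 at 5 ng, against 9.1, 9.52, 9.1 and 9.43 at 3 ng. As deposited, its arrays with doxycycline lay below those without it after 24 h and did not overlap them. After normalization the 3 ng arrays overlapped those at 0 ng. The difference was -0.63 ± 0.14 at 5 ng (adjusted p = 0.0015; -0.27 after normalization) and -0.56 ± 0.14 at 3 ng (-0.11 after normalization, adjusted p = 0.28). ACACA had -0.47 ± 0.16 at 5 ng (adjusted p = 0.037) and only -0.08 after normalization (adjusted p = 0.4). Its deposited call was lost without 0 ng replicate 1 or 4 (-0.44 and -0.35) or 5 ng replicate 1, 2 or 3 at 24 h (-0.46, -0.48 and -0.42).

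FASN read 8.36, 8.3, 8.59 and 8.82 at 0 ng, 7.91, 8.01, 7.84 and 7.78 at 3 ng and 7.71, 7.85, 7.74 and 7.88 at 5 ng after 24 h. The 12 h arrays read 7.85, 7.98, 7.88 and 7.86 at 5 ng, against 7.77, 8.31, 8.05 and 8.07 at 3 ng. As deposited, the 24 h arrays at either dose were below those at 0 ng, and the 2 doses overlapped. After normalization the 3 ng arrays overlapped those at 0 ng. FASN fell by 0.72 ± 0.14 at 5 ng, 1.65-fold (adjusted p = 0.00037), with -0.32 after normalization (adjusted p = 0.021). The normalized call was lost without 0 ng replicate 3, when the deposited difference was -0.70 and the normalized one -0.22. At 3 ng FASN had -0.63 ± 0.14, and -0.16 after normalization (adjusted p = 0.28).

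SCD, the stearoyl-CoA desaturase that makes oleate, read 8.74, 8.37, 8.29 and 9.33 at 0 ng, 7.9, 8.2, 7.59 and 8.16 at 3 ng and 7.43, 7.52, 7.4 and 7.91 at 5 ng after 24 h. After 12 h it read 7.32, 7.93, 7.71 and 7.74 at 5 ng, against 7.52, 8.55, 7.5 and 8.3 at 3 ng. Its 0 ng arrays spread over more than a unit as deposited, from 8.29 to 9.33. They still lay above all arrays with doxycycline at 24 h. After normalization the 3 ng arrays overlapped those at 0 ng. The difference at 5 ng was -1.12 ± 0.25, 2.17-fold lower (adjusted p = 0.0017), and -0.71 after normalization. At 3 ng it was -0.72 ± 0.25 (adjusted p = 0.039), and -0.24 after normalization (adjusted p = 0.27). That deposited value did not pass without 0 ng replicate 1 or 4 (-0.70 and -0.50) or 3 ng replicate 1, 3 or 4 at 24 h (-0.70, -0.60 and -0.79).

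ELOVL6 read 8.55, 8.35, 7.93 and 8.93 at 0 ng, 7.65, 7.78, 7.51 and 7.55 at 3 ng and 7.38, 7.47, 7.19 and 7.77 at 5 ng after 24 h. The 12 h signals were 7.22, 7.64, 7.43 and 7.57 at 5 ng, against 7.55, 8.14, 7.19 and 7.89 at 3 ng. Again both doses lay below 0 ng at 24 h as deposited, while after normalization the 3 ng arrays overlapped those at 0 ng. ELOVL6 fell by 0.99 ± 0.21 at 5 ng (adjusted p = 0.00096; -0.58 after normalization) and by 0.82 ± 0.21 at 3 ng (adjusted p = 0.0063; -0.35 after normalization). The fall at 3 ng did not pass on both scales without 0 ng replicate 4 (-0.65) or 3 ng replicate 3 at 24 h (-0.78).

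FADS1 and FADS2, desaturases in the making of arachidonate and other long polyunsaturated fatty acids, overlap each other in the RefSeq gene table. FADS1 read 7.43, 7.24, 6.99 and 7.75 at 0 ng, 6.4, 6.38, 6.35 and 6.27 at 3 ng and 6.09, 6.15, 6.16 and 6.3 at 5 ng after 24 h. FADS2 read 6.68, 6.38, 6.54 and 7.0 at 0 ng, 5.77, 6.0, 5.77 and 5.86 at 3 ng and 5.66, 5.61, 5.64 and 5.56 at 5 ng after 24 h. Each was lower at both doses than at 0 ng without overlap, and as deposited the FADS2 arrays at 5 ng also lay below those at 3 ng. After normalization the FADS2 arrays of the 2 doses overlapped (5.55 to 5.95 at 5 ng, 5.90 to 6.15 at 3 ng). FADS2 was not called between the doses on either scale. FADS1 fell by 1.18 ± 0.17 at 5 ng, 2.26-fold (adjusted p = 1.8e-05), and by 1.00 ± 0.17 at 3 ng (adjusted p = 0.0002). FADS2 fell by 1.03 ± 0.17 at 5 ng, 2.05-fold (adjusted p = 9.2e-05), and by 0.80 ± 0.17 at 3 ng (adjusted p = 0.0019). After normalization the differences of FADS1 were -0.78 and -0.59, and those of FADS2 -0.67 and -0.44. After 12 h FADS1 read 6.28, 6.88, 6.7 and 6.67 at 5 ng, against 6.61, 7.17, 6.57 and 6.96 at 3 ng. FADS2 then read 5.99, 6.34, 6.31 and 6.43 at 5 ng, against 5.98, 6.87, 6.18 and 6.48 at 3 ng. The 2 doses overlapped at 12 h for both genes.

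**Figure D3:**
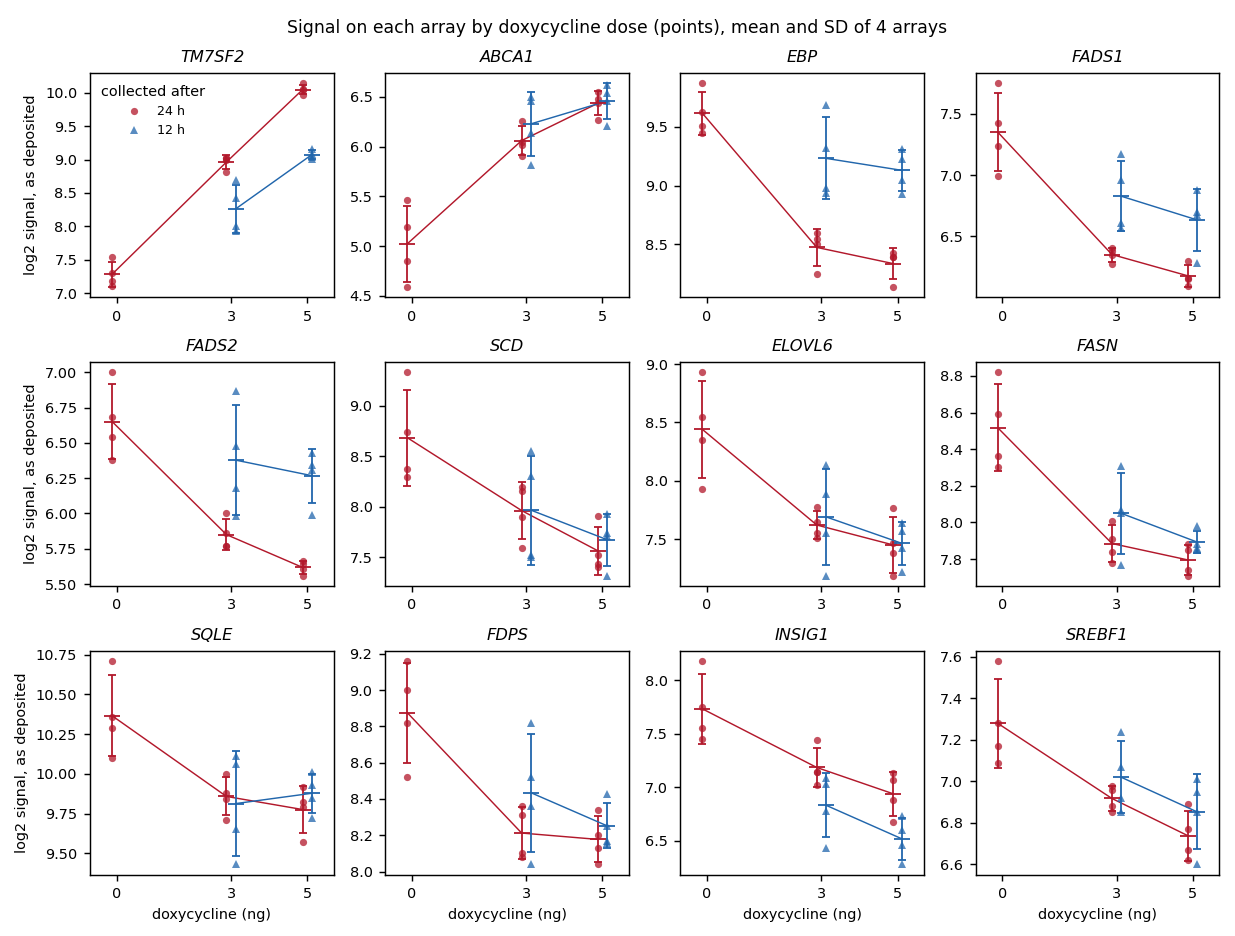
Log2 signal as deposited (y axis) against doxycycline dose in ng (x axis) for 12 of the genes, with each array as a point and the mean and SD of 4 arrays, after 24 h (red circles) and 12 h (blue triangles). TM7SF2 climbs at each dose and is higher after 24 h than after 12 h at both, whereas EBP, FADS1 and FADS2 are lower after 24 h than after 12 h on average.

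Among the regulators, INSIG1, a retention factor for SCAP and itself a target of SREBPs, fell at 5 ng. Its signals were 7.75, 7.55, 7.45 and 8.18 at 0 ng, 7.14, 7.44, 7.02 and 7.14 at 3 ng and 6.68, 7.13, 6.88 and 7.07 at 5 ng after 24 h. After 12 h they were 6.28, 6.6, 6.46 and 6.73 at 5 ng, against 6.78, 7.03, 6.43 and 7.09 at 3 ng. All induced arrays, at both doses and times, lay below the 0 ng arrays as deposited. After normalization the 3 ng arrays at 24 h overlapped those at 0 ng. The difference at 24 h was -0.79 ± 0.18 at 5 ng (adjusted p = 0.0019; -0.41 after normalization) and -0.55 ± 0.18 at 3 ng (adjusted p = 0.029), but -0.11 at 3 ng after normalization (adjusted p = 0.5). The deposited value at 3 ng did not pass without 0 ng replicate 1 or 4 (-0.54 and -0.40) or 3 ng replicate 1, 3 or 4 at 24 h (-0.53, -0.49 and -0.53).

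INSIG2, the related factor that SREBPs do not switch on, read 8.73, 8.51, 8.06 and 8.98 at 0 ng, 8.69, 8.62, 8.38 and 8.45 at 3 ng and 8.47, 8.51, 8.36 and 8.69 at 5 ng after 24 h. The 12 h signals were 8.21, 8.48, 8.41 and 8.44 at 5 ng, against 8.19, 8.66, 7.81 and 8.71 at 3 ng. Its groups overlapped throughout as deposited. After normalization the 24 h arrays at either dose lay above those at 0 ng. The difference was -0.06 at 5 ng and -0.04 at 3 ng as deposited, and 0.32 and 0.44 after normalization, where both passed (adjusted p = 0.015 and 0.0024).

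SREBF1, the gene of SREBP-1, read 7.28, 7.09, 7.17 and 7.58 at 0 ng, 6.96, 6.98, 6.85 and 6.88 at 3 ng and 6.77, 6.67, 6.62 and 6.89 at 5 ng after 24 h. At 12 h it read 6.6, 6.95, 6.85 and 7.01 at 5 ng, against 6.92, 7.24, 6.85 and 7.07 at 3 ng. At 24 h the arrays at 5 ng and at 3 ng were below those at 0 ng as deposited. After normalization the 3 ng arrays overlapped those at 0 ng. Its difference at 5 ng was -0.54 ± 0.14 (adjusted p = 0.0047), and -0.16 after normalization (adjusted p = 0.1), so it passed on the deposited values alone. At 3 ng SREBF1 passed on neither scale. Its 24 h mean was 6.92 at 3 ng against 7.28 at 0 ng as deposited, and 7.10 against 7.05 after normalization. SREBF2, the gene of SREBP-2, read 7.64, 7.38, 7.48 and 7.94 at 0 ng, 7.35, 7.39, 7.36 and 7.24 at 3 ng and 7.22, 7.25, 7.41 and 7.4 at 5 ng after 24 h. After 12 h it read 7.14, 7.14, 7.14 and 7.17 at 5 ng, against 6.94, 7.36, 6.97 and 7.43 at 3 ng. Its 24 h groups overlapped, with -0.29 at 5 ng and -0.28 at 3 ng, and 0.09 and 0.16 after normalization, none of which passed.

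SCAP, the sterol sensor, had -0.48 ± 0.14 at 5 ng and -0.51 ± 0.14 at 3 ng (adjusted p = 0.013 and 0.011), and -0.07 and -0.04 after normalization. Without 0 ng replicate 4 the deposited differences of SCAP were -0.38 and -0.41 and neither passed. STARD4, which carries cholesterol between membranes, had -0.18 at 5 ng and -0.25 at 3 ng, and passed on neither scale.

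ABCA1 pumps cholesterol and phospholipid out of the cell onto apolipoprotein A-I. It read 5.19, 4.85, 4.59 and 5.46 at 0 ng, 6.26, 6.02, 6.05 and 5.91 at 3 ng and 6.55, 6.27, 6.48 and 6.44 at 5 ng after 24 h. After 12 h it read 6.46, 6.21, 6.62 and 6.54 at 5 ng, against 6.14, 6.46, 5.81 and 6.5 at 3 ng. The 24 h doses did not overlap, with 5 ng above 3 ng and 3 ng above 0 ng, while the doses overlapped at 12 h. ABCA1 rose by 1.41 ± 0.18 at 5 ng, 2.66-fold (adjusted p = 4e-06), and by 1.04 ± 0.18 at 3 ng (adjusted p = 0.00029). After normalization these were 1.68 and 1.30. Its deposited rise at 5 ng was number 151 from the top among all genes.

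The upstream regions of ABCA1, INSIG1 and SREBF2 are shown because ABCA1 is the transport gene that rose, INSIG1 is the regulator that fell, and SREBF2 alone among the 27 genes with a window searched held the classical sterol regulatory element in it. They run over the 250 bases before the start, with the Sp1 and NF-Y boxes, the sterol regulatory element and a p53 half-site motif in capitals.
ABCA1, chr9:104928156-104928405, minus strand: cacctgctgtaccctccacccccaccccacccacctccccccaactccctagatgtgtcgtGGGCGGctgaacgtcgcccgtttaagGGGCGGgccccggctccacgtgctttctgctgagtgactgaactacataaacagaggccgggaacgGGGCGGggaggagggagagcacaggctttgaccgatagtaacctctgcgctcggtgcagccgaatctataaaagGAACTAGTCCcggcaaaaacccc
INSIG1, chr7:155297628-155297877, plus strand: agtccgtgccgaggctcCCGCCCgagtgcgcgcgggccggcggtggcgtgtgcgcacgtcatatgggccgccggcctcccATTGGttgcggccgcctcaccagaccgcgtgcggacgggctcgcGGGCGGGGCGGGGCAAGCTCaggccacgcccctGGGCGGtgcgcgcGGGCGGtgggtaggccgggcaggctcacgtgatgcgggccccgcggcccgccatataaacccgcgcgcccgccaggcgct
SREBF2, chr22:41832855-41833104, plus strand: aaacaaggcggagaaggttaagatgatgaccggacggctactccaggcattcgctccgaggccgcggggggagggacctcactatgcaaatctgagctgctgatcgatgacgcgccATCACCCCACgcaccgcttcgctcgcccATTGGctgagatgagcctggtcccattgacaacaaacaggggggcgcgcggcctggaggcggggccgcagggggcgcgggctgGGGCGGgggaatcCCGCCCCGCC
The sterol regulatory element of SREBF2 spans positions -134 to -125 and contains its core, and the last Sp1 box of SREBF2 runs on past the start. The p53 half-site, searched for after the values were known, spans -23 to -14 in ABCA1 and -116 to -107 in INSIG1, where it shares a base with an Sp1 box.

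RefSeq promoter windows of 300 bases (250 before to 50 after the start) were present for 27 of the 30 genes, 37 windows in all, and FASN, ACAT2 and SQLE had none in the table used. The Sp1 box was in 33 of the 37 windows (89.2%), against 45% of all 35114 windows in the table. The NF-Y box was in 23 (62.2%), against 34.6%. The core of the sterol regulatory element was in 1 window (2.7%), against 1.13%, and the p53 half-site in 3 (8.11%), of MVK, INSIG1 and ABCA1, against 6.63%. Several genes have overlapping windows, and a match is a run of letters, not a bound site. TM7SF2, the strongest riser, held 1 NF-Y box and 4 Sp1 boxes, and EBP, the strongest faller, held 3 and 1.

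**Figure D4:**
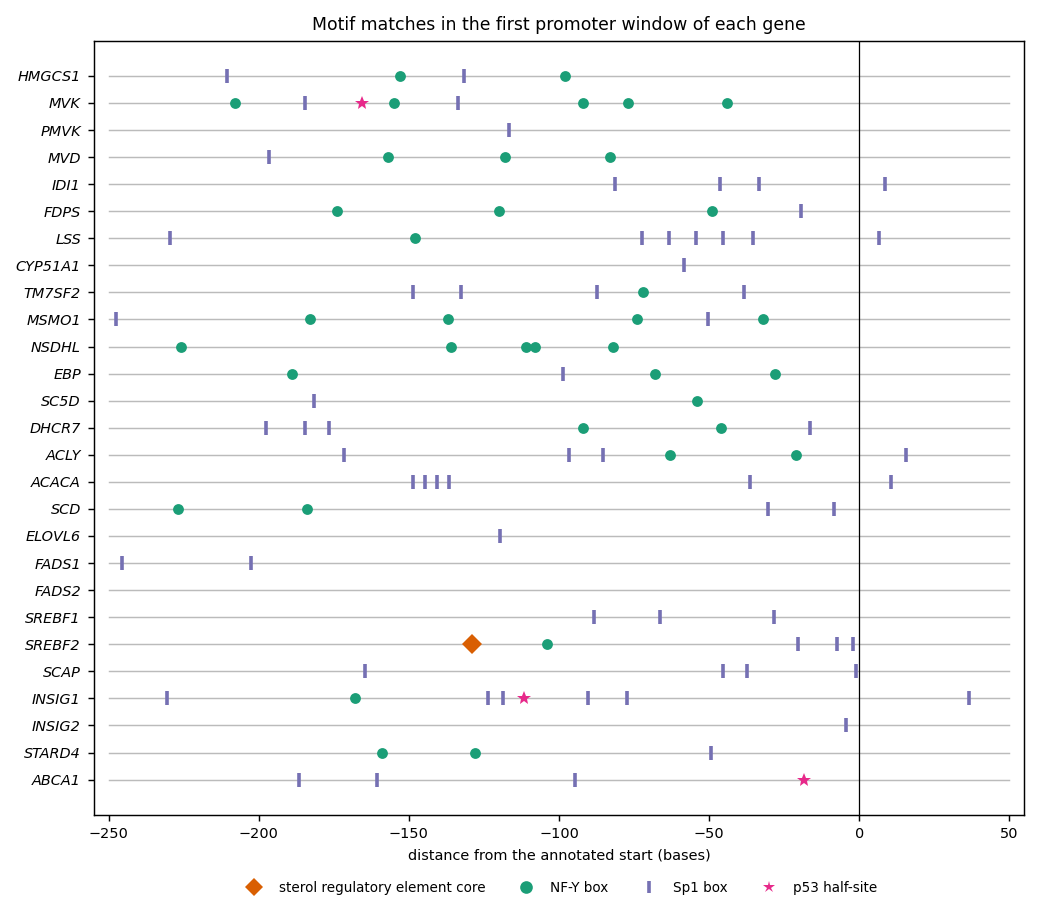
Position of each motif match, in bases from the annotated start (x axis), in the first RefSeq promoter window of the 27 genes that have one. NF-Y boxes (circles) and Sp1 boxes (bars) are common, the core of the sterol regulatory element (diamond) is in SREBF2 alone among these 27, and the p53 half-site (stars) is in MVK, INSIG1 and ABCA1.

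Raising the dose from 3 ng to 5 ng for 24 h changed 1 gene on both scales. TM7SF2 was 1.09 ± 0.15 higher at 5 ng than at 3 ng (adjusted p = 0.00032; 0.95 after normalization), 2.12-fold. Over all genes 1.78% rose and 0.755% fell on both scales. As deposited 1.79% were higher and 0.755% lower, and 5.96% higher and 4.42% lower after normalization. The normalized values added ACAT2 as higher (0.28, adjusted p = 0.025) and EBP as lower (-0.23, adjusted p = 0.047), with 0.38 and -0.14 as deposited. ABCA1 had 0.38 on both scales and did not pass (adjusted p = 0.57, 0.058 after normalization), though its arrays did not overlap. The fatty acid enzymes ran from -0.40 in SCD to 0.08 in ACACA, and the 95% interval for SCD was -0.92 to 0.12 (adjusted p = 0.83; 0.067 after normalization), so a further fall between the doses was not shown.

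After 12 h the deposited values called 0 of the 30 genes between 5 ng and 3 ng with limma. At an unadjusted p under 0.05 there was 1 of the 30, against 1082 of all 18417 genes. By adjusted p, 0.0217% of all genes were higher and 0% lower as deposited, and 2.32% higher and 0.424% lower after normalization. The gene with the small unadjusted p was TM7SF2, at 0.81 ± 0.15 (adjusted p = 0.075). After normalization it passed at 0.85 (adjusted p = 4.3e-05), and it passed on the deposited values as well, at 0.96, without 3 ng replicate 4 at 12 h. The other genes ran from -0.32 in INSIG1 to 0.25 in ACAT2.

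Set against 0 ng at 24 h, the 12 h groups differ in dose and in time, which cannot be told apart. With 5 ng for 12 h, TM7SF2 (1.79 ± 0.15) and ABCA1 (1.44 ± 0.18) were already higher, and INSIG1 was the lowest at -1.22 ± 0.18 (adjusted p = 9.6e-05; -0.98 after normalization). The next lowest were SCD (-1.01), ELOVL6 (-0.98), DHCR7 (-0.77) and FADS1 (-0.72), all of which passed on both scales with any 1 array left out. In all 2 genes were higher and 15 lower as deposited, and 3 and 15 after normalization. All genes gave 3.44% higher and 11.5% lower as deposited, and 11.5% higher and 14.3% lower after normalization. The deposited count of 17 was 10 without 0 ng replicate 4 and 11 without 5 ng replicate 1 at 12 h.

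With 3 ng for 12 h the same comparison gave 2 higher and 3 lower as deposited, 2 and 12 after normalization, and 2 and 20 after centring, where all genes gave 3.02% higher and 16.6% lower. All genes gave 1.57% higher and 1.24% lower as deposited, and 6.61% higher and 8.57% lower after normalization. ABCA1 (1.21 ± 0.18) and TM7SF2 (0.98 ± 0.15) were higher, and INSIG1 (-0.90 ± 0.18), DHCR7 (-0.76 ± 0.16) and ACLY (-0.56 ± 0.14) lower. ACLY did not pass without 3 ng replicate 1 or 3 at 12 h (-0.50 each) or without 0 ng replicate 1 or 4 (-0.56 and -0.46). The deposited count of 5 was 17 without 3 ng replicate 2 at 12 h and 9 without 0 ng replicate 3. DHCR7 thus had -0.77 and -0.76 after 12 h, against the -0.48 and -0.49 of 24 h, at 5 ng and 3 ng.

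Between 12 h and 24 h at the same dose, the changes on both scales were few. No uninduced group was collected at 12 h, so time with doxycycline and time in culture cannot be told apart in these comparisons. At 5 ng TM7SF2 was higher after 24 h than after 12 h by 0.98 ± 0.15 (adjusted p = 0.00019), and EBP (-0.79 ± 0.16) and FADS2 (-0.65 ± 0.17) were lower. The FADS2 value did not pass with any of 7 arrays left out, which were 5 ng replicate 2, 3 or 4 at 12 h (-0.63, -0.64 and -0.60) and 5 ng replicate 1, 2, 3 or 4 at 24 h (-0.66, -0.65, -0.66 and -0.63). All genes gave 0.424% higher and 3.53% lower on both scales, and 0.424% and 3.55% as deposited. At 3 ng TM7SF2 was higher by 0.70 ± 0.15 and EBP lower (-0.76 ± 0.16), where all genes gave 0.0706% higher and 4% lower on both scales, and 0.0706% and 4.36% as deposited. At 3 ng EBP did not pass after centring (-0.45, adjusted p = 0.087) and TM7SF2 did not pass when only the groups compared were fitted (0.70, adjusted p = 0.076).

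The normalized values showed a wider pattern across time. At 5 ng 12 genes were higher and 3 lower after 24 h than after 12 h, against 10.8% and 7.6% of all genes, and at 3 ng 15 were higher and 1 lower, against 9.92% and 6.06%. Centring gave 4 higher and 2 lower at 5 ng, against 3.07% and 3.7%, and 7 higher and 0 lower at 3 ng, against 2.13% and 2.67%. The genes higher at both doses on this scale included HMGCS1 (0.31 at 5 ng and 0.47 at 3 ng), LSS (0.36 and 0.40), MSMO1 (0.60 and 0.76), DHCR7 (0.37 and 0.47), INSIG1 (0.57 and 0.64) and SREBF2 (0.32 and 0.43). As deposited the same genes had positive differences that did not pass, from 0.13 for LSS at 3 ng to 0.51 for MSMO1 at 3 ng. On the normalized values INSIG1 was thus lower at 12 h than at 24 h, while EBP was lower at 24 h at both doses. FADS2 and FADS1 (-0.28) were lower at 24 h at 5 ng on that scale.

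**Figure D5:**
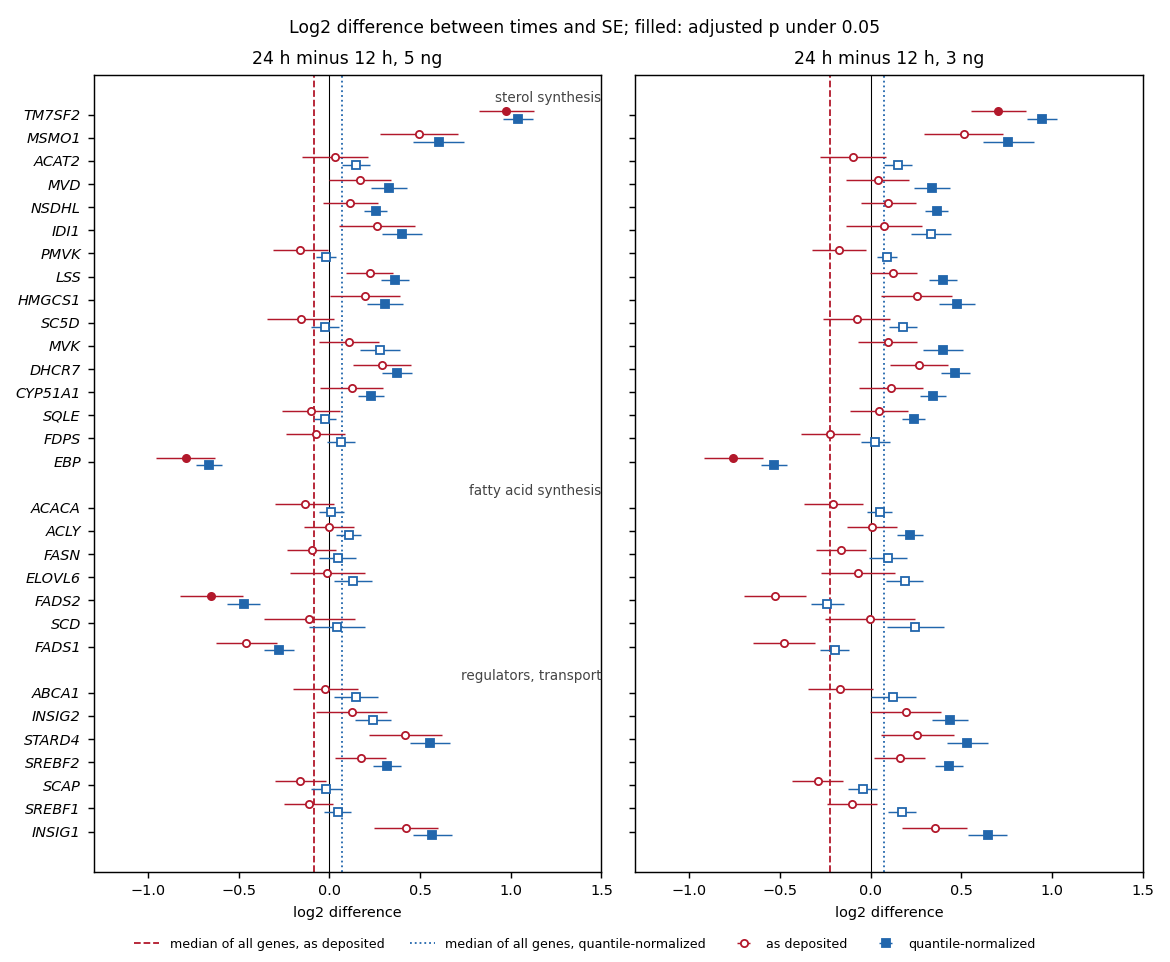
Log2 difference (x axis) and standard error of each of the 30 genes for 24 h minus 12 h at 5 ng (left) and 3 ng (right), as deposited (circles) and after quantile normalization (squares), filled where the adjusted p is under 0.05. Vertical lines give the median of all 18417 genes on each scale. TM7SF2 lies farthest right at both doses and EBP farthest left, and several sterol enzymes, among them MSMO1, LSS and DHCR7, pass as higher on the normalized values alone.

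The test of whether the step from 3 ng to 5 ng differed between the times called 0 of the 30 genes on either scale with limma. At an unadjusted p under 0.05 it picked 0 of the 30 genes as deposited and 1 after normalization. Of all 18417 genes, 391 and 1115 had such a p. By adjusted p, all genes gave 0% higher and 0% lower as deposited, and 0.00543% higher and 0.0652% lower after normalization. The interaction of TM7SF2 was 0.27 ± 0.21, so a difference between its dose steps at 24 h and 12 h was not detectable with 4 arrays in each group.

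Lipid genes outside the 30 were described from 4 lists, at 5 ng against 0 ng after 24 h, where 4.52% of all genes rose and 17.1% fell on both scales. Of 11 measured genes of SREBP processing and nuclear receptors, 1 rose and 2 fell, about the share of all genes that fell. TMEM97, a sterol-regulated membrane protein of cholesterol traffic, read 9.62, 9.54, 9.42 and 9.98 at 0 ng, 7.86, 7.95, 7.49 and 7.84 at 3 ng and 6.95, 7.22, 6.96 and 7.19 at 5 ng, with all 3 doses apart. It fell by 2.56 ± 0.19 (adjusted p = 1e-09; -2.17 after normalization), more than any of the 30 genes. MBTPS2, the site-2 protease that releases SREBPs, had -0.66 ± 0.18, and FBXW7, a ubiquitin ligase subunit that marks nuclear SREBPs for breakdown, 0.87 ± 0.19.

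Of 8 genes of the isoprenoid branch, 0 rose and 3 fell, where 4.52% of all genes rose and 17.1% fell on both scales. PDSS1, a subunit of the enzyme that makes the ubiquinone side chain, had -1.75 ± 0.20 (adjusted p = 9e-07) and COQ2, which attaches that chain, -1.19 ± 0.18 (adjusted p = 4.1e-05). Of 19 genes of fatty acid supply, elongation and activation, 3 rose and 6 fell, beside the same 4.52% and 17.1% of all genes. Centring gave 6 higher and 2 lower in this list, against 11.8% and 14.8% of all genes. Of the 6 that fell, HACD2, HACD3, TECR and ACSL4 did not pass after centring (adjusted p = 0.25, 0.12, 0.18 and 0.11). ELOVL5, an elongase of polyunsaturated fatty acids, had -0.94 ± 0.16 and ACACB, the mitochondrial acetyl-CoA carboxylase, -0.74 ± 0.26. ACACB was dim, at 2.86, 1.61, 2.6 and 3.02 at 5 ng, against 3.25, 3.15, 3.13 and 3.53 at 0 ng, and without the low 5 ng replicate 2 its difference was -0.44 (adjusted p = 0.19). It did not pass either without 0 ng replicate 1, 2 or 4 (-0.75, -0.78 and -0.65) or 5 ng replicate 3 (-0.77). In the same list HACD2, HACD3, ACSL4 and ME1 each lost the call on 1 scale without 1 array or another. SCD5, another stearoyl-CoA desaturase, had 0.60 ± 0.13 and FADS3, a desaturase related to FADS1 and FADS2, 0.47 ± 0.13, both higher, the opposite direction from SCD, FADS1 and FADS2. Of 11 genes of sterol transport and storage, 1 rose and 2 fell, again about the share of all genes that fell. STARD5, a sterol-binding carrier, had 1.85 ± 0.17 (adjusted p = 4.2e-08), ERLIN1, an endoplasmic reticulum protein that restrains SREBP activation, -1.31 ± 0.19, and SOAT1, which esterifies cholesterol for storage, -0.63 ± 0.17. SOAT1 did not pass after centring (-0.36, adjusted p = 0.065) or, on the normalized values, without 0 ng replicate 2 (-0.63 as deposited, -0.19 normalized).

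The medians of these 4 lists were -0.36, -0.50, -0.28 and -0.36 in that order as deposited, beside -0.24 for all genes, and -0.02, -0.14, 0.09 and -0.01 after normalization, beside 0.07. Of the p53 targets used as a check of induction, CDKN1A, which halts the cell cycle, was 1.44 ± 0.14 higher at 5 ng and 0.72 ± 0.14 higher at 3 ng than at 0 ng after 24 h. TP53I3 and SESN1 also rose at both doses (3.53 and 1.80 at 5 ng, 2.93 and 1.01 at 3 ng). MDM2, the ubiquitin ligase that limits p53, rose at 5 ng (0.48, or 0.35 with no call without 0 ng replicate 3) but at 3 ng had 0.18 (adjusted p = 0.44) as deposited and 0.48 after normalization. The labelled cell type was checked against 7 measured epithelial markers of 9 listed. Their median lay between 11.26 and 11.97 on every array, and KRT5, KRT14, KRT8 and CDH1 rose and EPCAM fell at 5 ng, though CDH1 (0.41) did not pass as deposited with any 1 of 7 arrays left out (0.31 to 0.45), all but 0 ng replicate 4. Their summed level, on the linear scale, ranged from 27582 to 31668 at 5 ng, against 21602 to 29005 at 0 ng. The 6 adipocyte markers had array medians from 3.025 to 4.505, summed levels of 55.8 to 93.7 at 5 ng against 71.6 to 100.2 at 0 ng, and 0 of 6 calls on both scales. Of the markers of liver, immune and endothelial cells and fibroblasts, SERPINA1 rose and CD14 fell. SERPINA1 averaged 8.74 at 0 ng and 9.95 at 5 ng after 24 h. The other liver markers ALB, APOA2 and TTR had -0.41, -0.15 and -0.31 at 5 ng and passed on neither scale. The part of these shifts in the lipid results was not tested.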

How the data were processed

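RNA from 20 samples was hybridised to Affymetrix gene arrays, 4 samples in each of 5 groups. The deposited table holds log2 signals of 33297 transcript clusters, and the authors' processing notes name GCOS, GCRMA, Affymetrix Power Tools and limma, with versions and order not given in the sources used here. Since array medians still differed, every test was run on the deposited log2 values and again after quantile normalization. Genes were named through the platform annotation: 19460 clusters had 1 symbol, 1754 several and 12083 were not listed. The brightest cluster stood for each of 18417 genes, of which 769 had several.

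One limma model (version 3.58.1, R 4.3.3) with a mean per group was fitted to all 20 arrays, leaving 15 residual degrees of freedom. Its moderated tests were adjusted with the Benjamini-Hochberg method over all genes at 0.05. The fit was also run on simulated data with independent noise and no brightness differences between arrays. That run therefore does not bear on how such differences move the calls. The number of arrays limits the precision, with 95% intervals of the 30 genes reaching 0.27 to 0.52 log2 units either side of a difference. The list members, other lists and tests were chosen with earlier results of these data known. Array values are given for 16 genes: those that passed with 1 sign on both scales in a dose comparison at a single time, and INSIG1, INSIG2, SREBF1, SREBF2 and ABCA1. From each other lipid list the 2 largest called changes in each direction are named. The p53 motif, the replicate variants of the counts on both scales and the checks of other-list genes were added after the values were seen. RefSeq promoters of GRCh38.p14 were searched on both strands. Alternatives were quantile normalization, centring, a replicate block, leaving out the dimmest 30% of genes, averaging clusters, trended and robust variances, fitting only the groups compared, and leaving out each array.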

Additional observations from a re-analysis of the deposited data

Results flagged for a closer look

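Of 150 groups of 4 arrays (30 genes in 5 groups), 6 held an array set apart from its 3 companions by Dixon's test, and chance gives about 1 in 20. After quantile normalization 6 groups did so too. Replicate 4 at 5 ng for 24 h was high for HMGCS1, at 9.38 with the others at 8.93 to 8.99, and for MSMO1, at 9.36 with the others at 8.73 to 8.76. Replicate 1 of the same group was low for EBP, at 8.14 against 8.39 to 8.43. Replicate 4 at 3 ng for 24 h was low for TM7SF2, at 8.81 with the others at 9.0 to 9.02. Replicate 4 at 0 ng was high for LSS, at 7.87 with the others at 7.46 to 7.53. Replicate 4 at 5 ng for 12 h had SREBF2 at 7.17, where the other 3 arrays all read 7.14, so that gap is small in size.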

How the results depend on the processing

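Counts are of the 30 genes called as deposited unless said otherwise. Quantile normalization gave 10 for 3 ng against 0 ng at 24 h (16 as deposited), 3 for the step of 5 ng over 3 ng at 24 h (1), 1 for that step at 12 h (0), 14 for 3 ng at 12 h against 0 ng (5), and 15 and 16 for 24 h against 12 h at 5 ng (3) and 3 ng (2). Centring each array on its median gave 11 for 5 ng against 0 ng at 24 h (17), 7 for 3 ng against 0 ng, 1 for 5 ng against 3 ng at 12 h, 22 for 3 ng at 12 h against 0 ng, and 6 and 7 for 24 h against 12 h at 5 ng and 3 ng. Leaving out the dimmest genes, and separately trended and robust variances, each gave 1 for 5 ng against 3 ng at 12 h and 12 for 3 ng at 12 h against 0 ng. Fitting only the groups compared, with fewer samples, gave 11 for 5 ng at 12 h against 0 ng (17), 3 for 3 ng at 12 h against 0 ng and 1 for 24 h against 12 h at 3 ng. The cause of the other changes was not tested. Signs were compared only for genes called on at least 1 scale in a comparison. Among these, quantile normalization turned the sign of NSDHL (0.21 at 5 ng and 0.26 at 3 ng, 24 h against 0 ng), INSIG2 (0.32 and 0.44), MVD at 3 ng (0.30) and ACAT2 at 5 ng for 12 h against 0 ng (0.26). Genes called on neither scale also changed sign. Of all 30 genes, 26 were below 0 as deposited and 16 after normalization at 5 ng against 0 ng, 24 h. At 3 ng these counts were 27 and 15. With 1 array left out, the counts ran from 13 to 18 and 9 to 18 for 5 ng and 3 ng against 0 ng at 24 h, 0 to 1 for 5 ng against 3 ng at 12 h, 10 to 19 and 4 to 17 for 5 ng and 3 ng at 12 h against 0 ng, and 2 to 3 for either dose across time. On both scales they ran from 12 to 13, 5 to 7, 0 to 1, 10 to 18, 4 to 11 and 2 to 3 for the same comparisons.

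Of 40 pairs of arrays with the same number, 29 had deviations that correlated above 0 as deposited (-0.18 to 0.50) and 38 after quantile normalization (-0.03 to 0.22), but only 13 and 12 correlated above 0.1. A pairing was taken to need every pair above 0.1, so the numbers were not used as one. With the replicate block the counts were 18, 18, 20 and 9 for 5 ng and 3 ng at 24 h and 5 ng and 3 ng at 12 h, each against 0 ng, and 9 on both scales for the last.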
